A study of Mus musculus with 48 samples.

Results

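The Toll-like receptor genes *Tlr1* to *Tlr9* and *Tlr13* were followed across monocytes, pre-red pulp macrophages (pre-RPMs), and red pulp macrophages (RPMs) of the mouse spleen. These 10 genes, of 54735 listed in each library, were taken by name. RNA-seq was made from cells of male Balb/c mice aged 10 weeks, either wild type (WT) or labelled IL1RL1-/-, a whole-body loss of the receptor for the cytokine IL-33 that all 3 cell types of those mice carry. Each of 4 untreated mice per genotype gave 1 library per cell type, 24 libraries in 6 groups. All cells were Ly6Glo, and were sorted as CD11bhi F4/80- (monocytes), CD11bhi F4/80lo (pre-RPMs), or CD11blo/- F4/80hi (RPMs). In its flow cytometry the study also took cells low for NK1.1 and CD11c, gates that the labels of these libraries do not give. In such bulk samples fewer cells of a type and less RNA per cell cannot be told apart. The other 24 of the 48 samples, on chromatin accessibility, were not analysed here.

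Toll-like receptors are transmembrane proteins that sense conserved parts of microbes through leucine-rich repeats and signal through a cytoplasmic TIR domain. TLR1, TLR2, TLR4, TLR5, and TLR6 sit mainly at the cell surface and sense lipopeptides, lipopolysaccharide, and flagellin, whereas TLR3, TLR7, TLR8, TLR9, and TLR13 sense nucleic acids in endosomes. All but TLR3 signal through the adaptor MyD88, which the IL-33 receptor also uses, and TLR3 and internalized TLR4 signal through TRIF. RPMs clear aged red blood cells and recycle their iron, and they are thought to arise from monocytes by way of pre-RPMs.

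The total count on genes per library was between 3562367 and 6559454 (median 4728764), and a single ribosomal RNA-like gene, *Gm42418*, took between 24.4% and 38.8% of it. The RPM markers fitted the labels: the summed level of 11 of them was between 6670 and 9276 CPM (the count scaled by the library's total and TMM factor) in the 8 RPM libraries, against between 44.3 and 141 in monocytes and between 160 and 358 in pre-RPMs. The 11 monocyte markers did not set monocytes apart, since they summed to between 886 and 2387 CPM in monocytes, between 1940 and 2805 in pre-RPMs, and between 1418 and 1778 in RPMs. Markers of other cells were also present. Those of NK cells (6 of 6 above 3 counts in some library) summed to between 479 and 1790 CPM in monocytes, against at most 135 in pre-RPMs and 40.9 in RPMs. Neutrophil markers summed to between 736 and 2454 CPM in monocytes, and erythroid markers to between 748 and 21562 CPM in RPMs. RPM libraries were also higher in summed markers of endothelial cells (between 289 and 362 CPM, at most 29 elsewhere) and eosinophils (between 293 and 426, at most 109 elsewhere). The same held for T cells (between 40.6 and 86.4 CPM, at most 26.4 elsewhere). In WT RPMs, 3 of 5 endothelial and 6 of 8 eosinophil markers were above 3 counts in some library. Those that were not were *Cdh5* and *Tie1*, and *Epx* and *Ear1*. In RPMs labelled IL1RL1-/-, 5 of 5 endothelial and 4 of 8 eosinophil markers were (not *Epx*, *Il5ra*, *Ear1*, or *Ear6*). In pre-RPMs of both genotypes, 8 of 8 eosinophil markers were. The higher eosinophil sum in RPMs thus did not come from every marker. *Il1rl1*, the targeted gene, was higher in libraries labelled IL1RL1-/- than in WT in monocytes and pre-RPMs. In monocytes it stood at 3.20 CPM in WT and 14.1 in libraries labelled IL1RL1-/- (log2 fold change 2.13, SE 0.23, edgeR adjusted p = 0.00882). In pre-RPMs it stood at 4.25 and 12.3 CPM (log2 fold change 1.52, SE 0.20, edgeR adjusted p = 0.00107). In RPMs it was low in both (1.94 CPM in WT and 0.826 in libraries labelled IL1RL1-/-) and not tested between genotypes, and its change from pre-RPMs to RPMs differed between genotypes (−2.67, edgeR adjusted p = 0.0197). These counts join all exons of the gene, and reads outside the targeted exons neither bear out nor go against a label. Genotypes below are therefore given as labelled. Levels below are in CPM, unless given per kilobase of exon (CPM per kb), the scale used to compare genes with one another. Between cell types, a gene was called at edgeR adjusted p under 0.01 with an absolute log2 fold change above 1, and between genotypes at an adjusted p under 0.05.

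**Figure D1:**
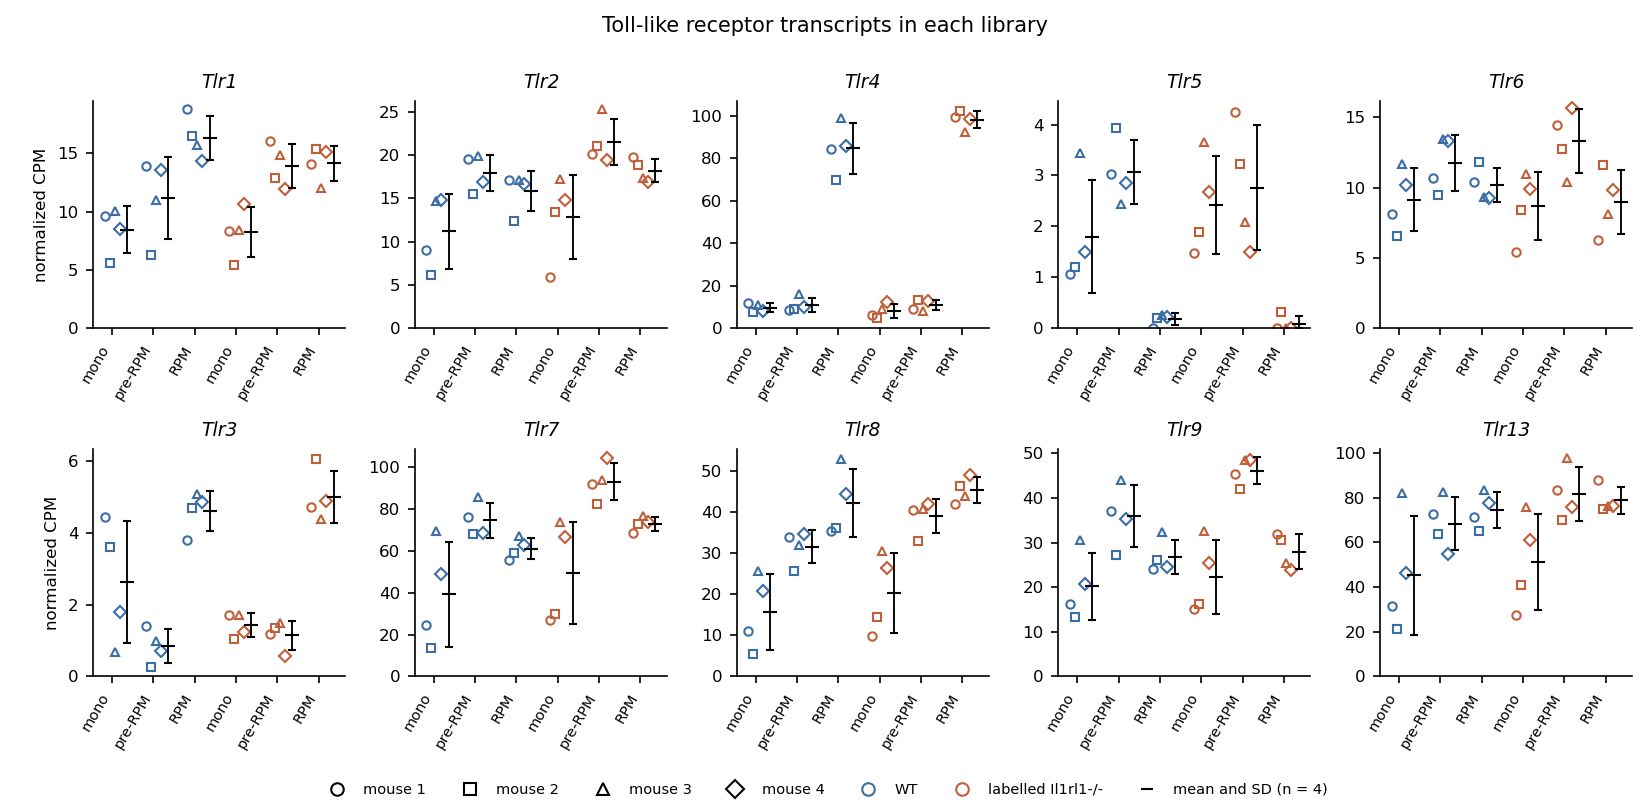
Normalized CPM (vertical axes, each starting at 0) of the 10 receptor genes in the 24 libraries, by group, with WT in blue and libraries labelled IL1RL1-/- in orange, the mouse number as symbol, and the mean with its SD (n = 4) in black. *Tlr4* stands between 69.6 and 102 CPM in all RPM libraries and under 16 CPM elsewhere, *Tlr5* is near 0 in RPMs, and monocyte libraries of mice 1 and 2 lie below those of mice 3 and 4 for *Tlr7*, *Tlr8*, *Tlr9*, and *Tlr13*.

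Upstream sequences are shown for *Tlr5* and *Tlr3*, which are the lowest of the 10 genes and move in opposite directions into RPMs, and for *Tlr8*, the endosomal receptor called from monocytes to RPMs in both genotypes. They run 5′ to 3′ from 250 bases before to 50 bases after the RefSeq start (assembly GRCm38.p6), at chr1:182954538-182954837 (plus strand), chr8:45410331-45410630 (minus strand), and chrX:167264280-167264579 (minus strand). RefSeq start sites were at hand for 8 of the 10 genes, and *Tlr4* and *Tlr7* are named only. Capitals mark matches on either strand to the letters GAGGAA of sites for PU.1, the letters AGATAA of sites for GATA factors, the letters GAAANNGAA of the core of an interferon-stimulated response element, the letters TTGCNNAA of sites for C/EBP, or the letters TGCTGAC of sites for MAF.
Tlr5: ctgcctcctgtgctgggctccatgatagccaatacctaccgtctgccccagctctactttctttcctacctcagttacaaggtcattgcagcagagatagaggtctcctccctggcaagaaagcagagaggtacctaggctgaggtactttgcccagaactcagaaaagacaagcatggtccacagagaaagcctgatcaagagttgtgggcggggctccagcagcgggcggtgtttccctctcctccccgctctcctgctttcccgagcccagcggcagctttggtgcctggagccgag
Tlr3: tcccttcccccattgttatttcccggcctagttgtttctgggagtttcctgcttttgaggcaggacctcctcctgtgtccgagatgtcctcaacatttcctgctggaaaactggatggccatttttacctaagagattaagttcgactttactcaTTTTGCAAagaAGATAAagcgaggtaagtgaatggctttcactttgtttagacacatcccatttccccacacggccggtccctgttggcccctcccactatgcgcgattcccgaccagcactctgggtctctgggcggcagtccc
Tlr8: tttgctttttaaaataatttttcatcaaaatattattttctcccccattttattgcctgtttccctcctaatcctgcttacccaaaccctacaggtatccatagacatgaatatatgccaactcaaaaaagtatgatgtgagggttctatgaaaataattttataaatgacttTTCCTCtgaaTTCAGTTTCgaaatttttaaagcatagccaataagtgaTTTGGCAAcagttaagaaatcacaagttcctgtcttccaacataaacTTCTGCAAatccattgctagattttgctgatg
None of these letters occur in the *Tlr5* window. The *Tlr3* window holds 1 C/EBP match and 1 GATA match, and the *Tlr8* window holds 1 PU.1 match, 1 match to the interferon response core, and 2 C/EBP matches, none of which overlap. Such matches are common, in 28.3% (PU.1), 11.2% (GATA), 8.6% (interferon response core), 10.8% (C/EBP), and 4.7% (MAF) of 32851 promoters of this length, so they describe the letters and no more.

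*Tlr4*, which encodes the lipopolysaccharide receptor (ENSMUSG00000039005, GRCm38 chromosome 4 from 66827584 to 66930284, plus strand), was far higher in RPMs than in either other cell type. In monocytes of WT mice 1, 2, 3, and 4, it stood at 12.1, 7.79, 11, and 7.94 CPM. In WT pre-RPMs of the same mice, it stood at 8.60, 9.18, 15.9, and 10.2 CPM. In WT RPMs, it stood at 84.3, 69.6, 99.1, and 85.7 CPM. The lowest RPM library was thus far above the highest library of either other cell type, while monocytes and pre-RPMs overlapped. From pre-RPMs to RPMs the log2 fold change came to 2.90 (SE 0.18, edgeR adjusted p = 8.86e-09), and from monocytes to RPMs to 3.10 (SE 0.18, edgeR adjusted p = 1.95e-07). Both comparisons use the same RPM libraries. From monocytes to pre-RPMs it was 0.18 (SE 0.24, edgeR adjusted p = 0.642). Libraries labelled IL1RL1-/- showed the same order, with 8.26 ± 3.39 CPM for monocytes, 10.9 ± 2.5 for pre-RPMs, and 98.1 ± 4.05 for RPMs (mean ± SD, n = 4), and with a log2 fold change from pre-RPMs to RPMs of 3.08 (SE 0.13, edgeR adjusted p = 2.29e-11). *Tlr4* was called in every fit that left out 1 library, and in WT its log2 fold change from pre-RPMs to RPMs then lay between 2.79 and 3.12. Its share of the summed level per kb of the 10 genes was 4.83% ± 2.08 in WT monocytes, 2.86% ± 0.604 in WT pre-RPMs, and 18.8% ± 1.13 in WT RPMs (SD, n = 4).

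The other surface receptors for bacterial lipids and lipopeptides, *Tlr1*, *Tlr2*, and *Tlr6*, differed far less between cell types. TLR2 pairs with TLR1 or TLR6 to bind triacylated or diacylated lipopeptides. *Tlr1* (chromosome 5 from 64924679 to 64933563, minus strand) stood between 5.59 and 10.1 CPM in WT monocytes, between 6.30 and 13.9 in WT pre-RPMs, and between 14.3 and 18.8 in WT RPMs. All 4 WT RPM libraries lay above the 4 monocyte libraries, and the log2 difference was 0.93 (SE 0.19, edgeR adjusted p = 0.00233). This fold was just under the limit and passed it without the monocytes of mouse 1 (1.00) or mouse 3 (1.02) or the RPMs of mouse 4 (1.01). In libraries labelled IL1RL1-/-, the same change was 0.79 (SE 0.20, edgeR adjusted p = 0.00585). *Tlr2* (chromosome 3 from 83836272 to 83841767, minus strand) stood at 11.2 ± 4.29 CPM in WT monocytes, 17.9 ± 2.11 in WT pre-RPMs, and 15.8 ± 2.28 in WT RPMs (mean ± SD, n = 4), and no change of it was called. *Tlr6* (chromosome 5 from 64952031 to 64960097, minus strand) stood at 9.15 ± 2.25, 11.7 ± 1.99, and 10.2 ± 1.19 CPM in the same groups. Between pre-RPMs and RPMs labelled IL1RL1-/- its log2 fold change was −0.62 (SE 0.20, edgeR adjusted p = 0.0142), short of both thresholds. *Tlr1* and *Tlr6* are neighbouring, closely similar genes, and read pairs that map to both are not counted with the options the authors give, which was not examined further.

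*Tlr5*, the flagellin receptor gene (chromosome 1 from 182954788 to 182976044, plus strand), was nearly undetected in RPMs. Its counts were 7, 6, 15, and 10 in WT monocytes of mice 1 to 4, then 13, 15, 10, and 12 in WT pre-RPMs, and 0, 1, 1, and 1 in WT RPMs. In RPMs labelled IL1RL1-/- they were 0, 2, 0, and 0, against between 7 and 19 in pre-RPMs and between 6 and 17 in monocytes of the same genotype. No RPM library of either genotype exceeded 3 counts, a level not told apart from 0 at this depth, and every monocyte and pre-RPM library did. Set against 3 counts per library, *Tlr5* was at least 4.47-fold lower in WT RPMs than in WT pre-RPMs and at least 2.63-fold lower than in WT monocytes. In libraries labelled IL1RL1-/- it was at least 4.49-fold lower than in pre-RPMs and at least 3.94-fold lower than in monocytes. The exact 2-sided permutation test gave p = 0.0286 in each of the 4 comparisons, the smallest p that 4 against 4 libraries allow. The filter on low counts kept *Tlr5* out of edgeR's test there, whereas DESeq2 tested and called it in all 4 (adjusted p between 5.67e-05 and 0.00387). Between monocytes and pre-RPMs, where it was tested, its log2 fold change was 0.82 in WT (SE 0.39, edgeR adjusted p = 0.171) and 0.18 in libraries labelled IL1RL1-/- (SE 0.39, edgeR adjusted p = 0.812).

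*Tlr3*, which encodes the endosomal receptor for double-stranded RNA (chromosome 8 from 45395665 to 45411080, minus strand), was also low, and rose into RPMs. Its counts in WT mice 1 to 4 were 29, 18, 3, and 12 (monocytes), 6, 1, 4, and 3 (pre-RPMs), and 18, 23, 19, and 21 (RPMs). All RPM libraries were above all pre-RPM libraries, while the monocyte libraries scattered from the pre-RPM level to the RPM level. From pre-RPMs to RPMs the log2 fold change was 2.34 in WT (SE 0.36, edgeR adjusted p = 8.58e-05) and 2.09 in libraries labelled IL1RL1-/- (SE 0.32, edgeR adjusted p = 4.6e-05), and it was called in every fit that left out 1 library. From monocytes to RPMs it was 0.74 in WT (SE 0.41, edgeR adjusted p = 0.16) and 1.81 in libraries labelled IL1RL1-/- (SE 0.28, edgeR adjusted p = 0.000156). In the latter, monocytes held between 5 and 8 counts and RPMs between 20 and 37. The WT value depends on monocyte libraries: with the monocytes of mice 3 and 4 only, it was 1.75 (edgeR adjusted p = 0.00561). From monocytes to pre-RPMs *Tlr3* had too few counts for edgeR's filter, and the difference in mean log2 CPM was −1.15 in WT (exact 2-sided permutation test, p = 0.143) and −0.27 in libraries labelled IL1RL1-/- (exact 2-sided permutation test, p = 0.371). *Tlr3* shares 381 exon bases with *Gm45542* on the opposite strand, which the strand-specific counting keeps apart.

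*Tlr7*, *Tlr8*, *Tlr9*, and *Tlr13*, whose products sense single-stranded RNA, RNA breakdown products, unmethylated CpG DNA, and bacterial ribosomal RNA, respectively, differed widely among monocyte libraries. *Tlr9* lies on chromosome 9 (from 106222598 to 106226883, plus strand) and the other 3 on X, *Tlr8* from 167242696 to 167264329 and *Tlr7* from 167304929 to 167330558 (both minus strand) and *Tlr13* from 106143204 to 106160493 (plus strand). *Tlr7* stood at 24.6, 13.8, 69.5, and 49.0 CPM in monocytes of WT mice 1 to 4, at 76.0, 68.0, 85.7, and 68.5 in pre-RPMs, and at 55.5, 59.0, 66.8, and 62.6 in RPMs. *Tlr13* stood at 31.4, 21.2, 81.9, and 46.4 CPM in WT monocytes, at 72.5, 63.8, 82.3, and 54.7 in pre-RPMs, and at 71.4, 65.0, 83.6, and 77.6 in RPMs. The monocytes of mice 1 and 2 lay below every pre-RPM and RPM library for both genes, and those of mouse 3 lay within the range of the pre-RPMs.

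For *Tlr8*, WT monocytes held 11, 5.39, 25.7, and 20.8 CPM, pre-RPMs 34.0, 25.7, 31.9, and 34.5, and RPMs 35.4, 36.0, 52.9, and 44.3. It was higher in RPMs than in monocytes of the same mouse in 4 of 4 mice of either genotype, with a log2 fold change of 1.40 in WT (SE 0.36, edgeR adjusted p = 0.00844) and 1.16 in libraries labelled IL1RL1-/- (SE 0.27, edgeR adjusted p = 0.00311). In WT this call remained in 2 of 8 fits with 1 library removed, those without the monocytes of mouse 2 or mouse 3. Over all 8 fits the log2 fold change lay between 1.13 and 1.72 and the edgeR adjusted p between 0.00183 and 0.024. In libraries labelled IL1RL1-/- it remained in 4 of 8, and it was lost without the monocytes of mouse 1 (0.93) or mouse 2 (0.98) or the RPMs of mouse 2 or mouse 4 (1.13 each). *Tlr9* stood at 16.2, 13.4, 30.5, and 20.7 CPM in WT monocytes, at 37.0, 27.3, 44.1, and 35.2 in pre-RPMs, and at 24.1, 26.1, 32.3, and 24.5 in RPMs. It was lower in the RPMs than in the pre-RPMs of the same mouse in 4 of 4 mice of either genotype. From pre-RPMs to RPMs its log2 fold change was −0.48 in WT (SE 0.15, edgeR adjusted p = 0.0159) and −0.77 in libraries labelled IL1RL1-/- (SE 0.11, edgeR adjusted p = 1.94e-05), under the fold limit in both. For *Tlr7* these values were −0.34 (SE 0.11, edgeR adjusted p = 0.0207) and −0.41 (SE 0.09, edgeR adjusted p = 0.00196).

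From monocytes to pre-RPMs, 0 of the 9 receptor genes tested in WT were called, against 3.57% of all genes tested. At an unadjusted p under 0.05 there were 4 (*Tlr2*, *Tlr7*, *Tlr8*, and *Tlr9*; 31.9% of all genes), and DESeq2 called 0. The median log2 fold change of the 9 was 0.68, beside 0.01 over all genes. *Tlr1*, *Tlr2*, *Tlr6*, *Tlr7*, *Tlr8*, *Tlr9*, and *Tlr13* were each higher in the pre-RPMs than in the monocytes of the same mouse in 4 of 4 mice. The share of all genes with that pattern was not counted, so it is not known whether it sets these receptors apart. Without the monocytes of mouse 3, 4 genes were called, *Tlr7* (1.35), *Tlr8* (1.32), *Tlr9* (1.10), and *Tlr13* (1.05), at edgeR adjusted p from 0.0016 to 0.00914. The share of all genes called in that fit is not given, so it is not known whether these calls set the receptors apart. In libraries labelled IL1RL1-/-, 1 of 9 was called (4.85% of all genes), *Tlr9* (log2 fold change 1.05, SE 0.20, edgeR adjusted p = 0.00506), and the median of the 9 was 0.73. There, *Tlr9* stood at 15.0, 16.2, 32.5, and 25.5 CPM in monocytes and at 45.4, 42.1, 48.5, and 48.5 in pre-RPMs, so that the groups did not overlap. It was called in 2 of 8 fits that left out 1 library, those without the monocytes of mouse 3 or mouse 4, and over all 8 the log2 fold change lay between 0.89 and 1.28. Without the monocytes of mouse 3, *Tlr7* (1.18) and *Tlr8* (1.19) were called as well. With the mouse number as a block, which the labels allow since cells of one number and genotype came from the same mouse, 3 genes were called, *Tlr7* (1.02, edgeR adjusted p = 0.00373), *Tlr8* (1.01, edgeR adjusted p = 0.00492), and *Tlr9*. For these further fits, too, the share of all genes called is not given.

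The monocyte libraries low in these receptors were higher in markers of several other cell types, among them NK cells, B cells, T cells, and basophils. In WT monocytes of mice 1 to 4, NK markers summed to 1534, 1790, 541, and 998 CPM and the 11 monocyte markers to 1132, 886, 2312, and 1716 CPM. In monocytes labelled IL1RL1-/-, NK markers summed to 1474, 1116, 479, and 761 CPM and monocyte markers to 1082, 1416, 2387, and 2013 CPM. Summed markers of B cells (at most 111 CPM), T cells (at most 26.4 CPM), and basophils (at most 25.1 CPM) were likewise higher in mice 1 and 2 than in mice 3 and 4 of both genotypes, as were plasma cell markers in monocytes labelled IL1RL1-/- (1131 and 1718 CPM in mice 1 and 2). Neutrophil markers were not split that way, at 2454, 1279, 1986, and 736 CPM in WT and 1013, 2039, 1769, and 1946 in monocytes labelled IL1RL1-/-. Neither were plasma cell markers in WT, nor conventional dendritic cell markers in monocytes labelled IL1RL1-/- (79.5, 50.9, 60.3, and 65.6 CPM). In both genotypes, mice 3 and 4 had lower NK marker sums than mice 1 and 2 and higher levels of *Tlr2*, *Tlr5*, *Tlr6*, *Tlr7*, *Tlr8*, *Tlr9*, and *Tlr13*, whereas *Tlr3* and WT *Tlr1* and *Tlr4* were not split that way. With the monocytes of mice 3 and 4 only, a choice made after the values were seen, *Tlr8* from monocytes to RPMs had a log2 fold change of 0.84 in WT (edgeR adjusted p = 0.00463) and 0.64 in libraries labelled IL1RL1-/- (edgeR adjusted p = 0.0016), and *Tlr9* from monocytes to pre-RPMs labelled IL1RL1-/- to 0.66 (edgeR adjusted p = 0.00444), none past the fold limit. *Tlr4* remained called between monocytes and RPMs of both genotypes under that choice. The part of RNA from any of these cells in the levels of single receptors was not tested further.

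**Figure D2:**
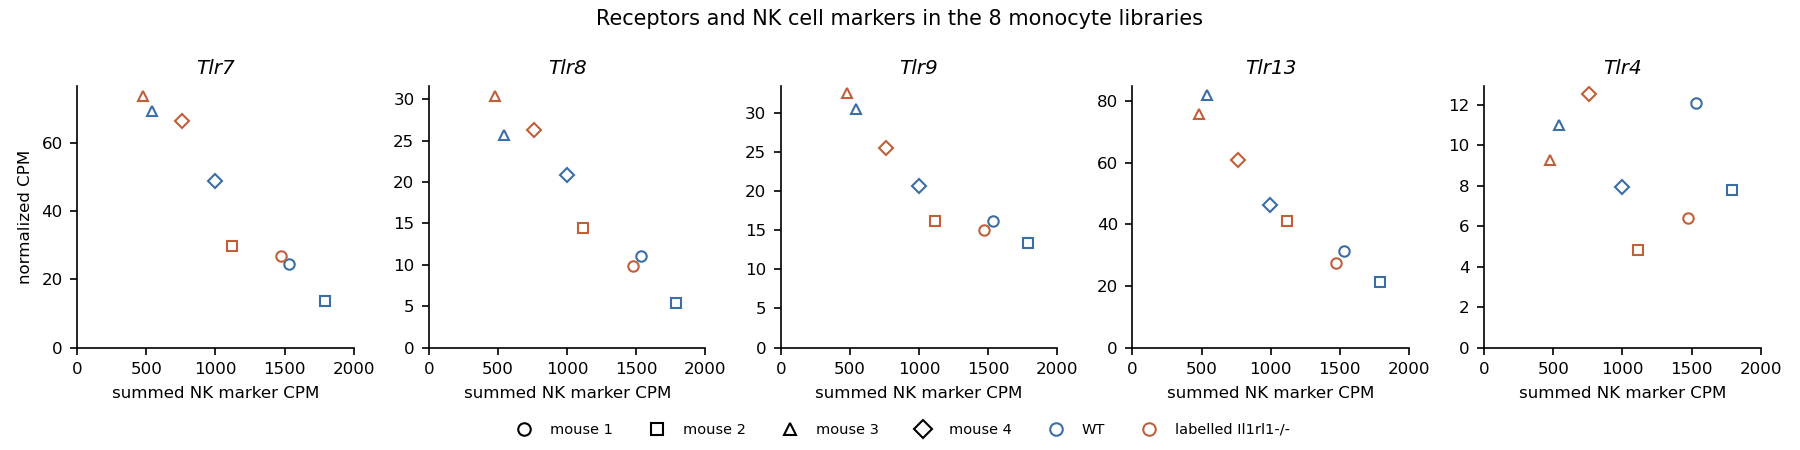
Normalized CPM of *Tlr7*, *Tlr8*, *Tlr9*, *Tlr13*, and *Tlr4* (vertical axes, from 0) against the summed CPM of 6 NK cell markers (horizontal axes) in the 8 monocyte libraries, 4 WT in blue and 4 labelled IL1RL1-/- in orange, with the mouse number as symbol. The 4 endosomal receptors are lowest in the WT library with 1790 CPM of NK markers and highest in the library with 479 (*Tlr7*, *Tlr8*, and *Tlr9*) or 541 CPM (*Tlr13*). *Tlr4* is lowest in the library with 1116 CPM and highest in that with 761, both labelled IL1RL1-/-. In that genotype its mice 1 and 2 also lie below mice 3 and 4, and in WT they do not.

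Into RPMs, receptor genes were called about as often as genes in all. From pre-RPMs to RPMs, 2 of 9 tested were called in WT (24.7% of all genes) and 2 of 9 in libraries labelled IL1RL1-/- (26.0% of all genes), *Tlr3* and *Tlr4* in both, and all of them higher (14.0% of all genes were called higher in WT). The median log2 fold change of the 9 was 0.07 in WT and −0.10 in libraries labelled IL1RL1-/-, beside 0.00 over all genes in both. From monocytes to RPMs, 2 of 9 were called in WT (23.9% of all genes), *Tlr4* and *Tlr8*, and 3 of 9 in libraries labelled IL1RL1-/- (25.9% of all genes), *Tlr3*, *Tlr4*, and *Tlr8*. The medians there were 0.70 and 0.62, beside −0.01 and 0.01. Without the WT monocytes of mouse 3, *Tlr13* was called as well (1.15, edgeR adjusted p = 0.00171). In the main fits, the counts of called receptors are near those of all genes, and *Tlr5* stood outside all 4 tests.

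**Figure D3:**
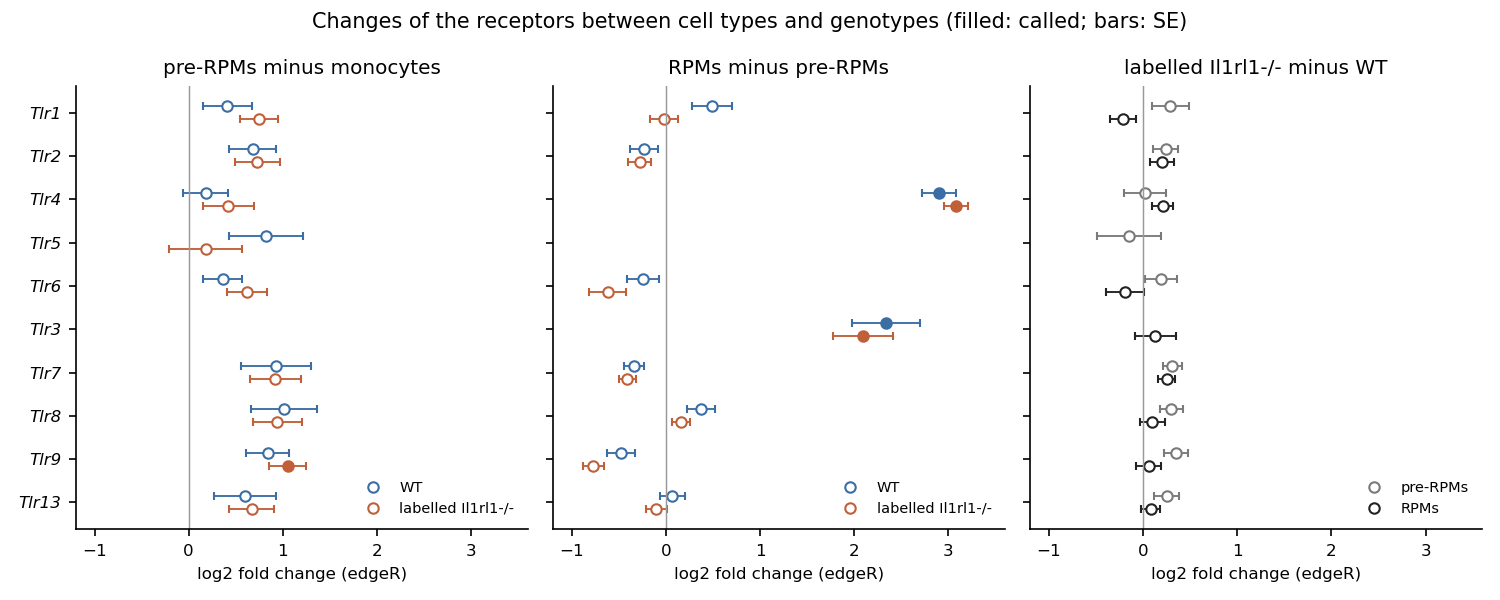
Log2 fold changes (edgeR, horizontal axes) with their SE for the receptor genes tested, from monocytes to pre-RPMs, from pre-RPMs to RPMs, and between genotypes in pre-RPMs (grey) and RPMs (black); in the first 2 panels WT is blue and libraries labelled IL1RL1-/- orange, and filled points are called. Filled points are *Tlr9* at 1.05 in the first panel and *Tlr3* and *Tlr4* between 2.09 and 3.08 in the second, and no point is filled in the third.

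Per length, *Tlr7* and *Tlr13* had the highest mean levels of the receptor transcripts in monocytes and pre-RPMs, and *Tlr4* joined them in RPMs. In WT pre-RPMs, *Tlr7* had a level of 18.3 ± 2.04 CPM per kb and *Tlr13* of 15.9 ± 2.75 (mean ± SD, n = 4), and their ranges overlapped. They were followed by *Tlr9* (10.3) and *Tlr8* (8.78), which overlapped each other, then by *Tlr2* (5.95), and then by *Tlr1* (3.35), *Tlr6* (3.15), and *Tlr4* (1.98), which overlapped in that order, with *Tlr5* (0.64) and *Tlr3* (0.161) last and apart. In WT RPMs, *Tlr13* (17.3 ± 1.86 CPM per kb), *Tlr4* (15.2 ± 2.17), *Tlr7* (14.9 ± 1.18), and *Tlr8* (11.8 ± 2.29) did not separate from their neighbours in the order. Below them came *Tlr9* (7.69), *Tlr2* (5.25) overlapping *Tlr1* (4.89), *Tlr6* (2.73), *Tlr3* (0.884), and *Tlr5* (0.0366). *Tlr4* thus went from the eighth place in pre-RPMs to a place among the first 4 in RPMs, and *Tlr3* and *Tlr5* changed places at the bottom. In WT monocytes the ranges of all neighbours overlapped except those of *Tlr4* (1.75) and *Tlr3* (0.505). In RPMs labelled IL1RL1-/-, the first 3 were *Tlr13* (18.3), *Tlr7* (17.8), and *Tlr4* (17.7), again not apart. The 5 surface receptors together made up 28.0% ± 5.88 of the summed level per kb in WT monocytes, 22.0% ± 1.51 in WT pre-RPMs, and 34.9% ± 2.07 in WT RPMs (SD, n = 4).

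**Figure D4:**
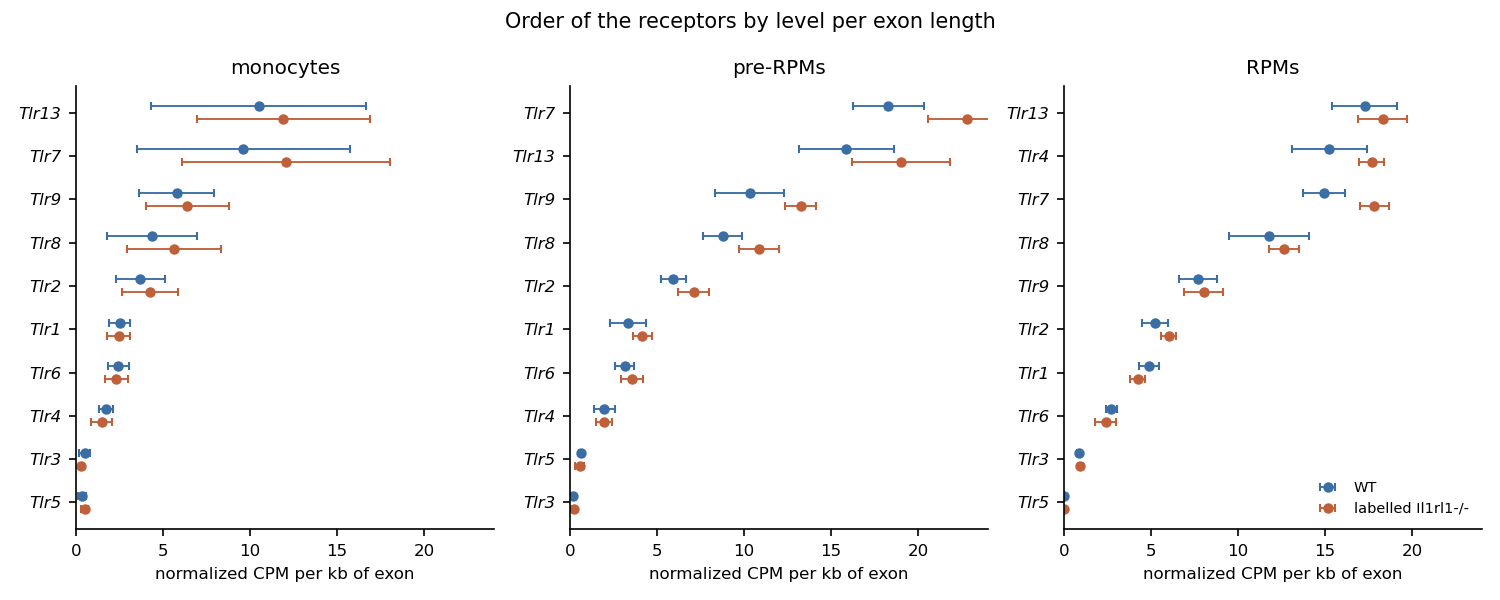
Level of each receptor gene in normalized CPM per kb of exon (horizontal axes, from 0), ordered by the WT mean within monocytes, pre-RPMs, and RPMs, with points for the mean and bars for the SD of 4 libraries (WT in blue, labelled IL1RL1-/- in orange). *Tlr4* is eighth in monocytes (1.75 in WT) and pre-RPMs (1.98) and second in RPMs (15.2).

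Between genotypes, no receptor gene was called in any cell type. In monocytes, 0 of 8 tested were called (0.0614% of all genes) and 0 had an unadjusted p under 0.05 (3.59% of all genes), with log2 fold changes between −0.23 (*Tlr4*) and 0.37 (*Tlr8*). In pre-RPMs, 0 of 9 were called (0.552% of all genes) and 3 had an unadjusted p under 0.05 (8.80% of all genes), the endosomal *Tlr7* (0.31, SE 0.10), *Tlr8* (0.30, SE 0.12), and *Tlr9* (0.35, SE 0.13), with edgeR adjusted p of 0.308, 0.468, and 0.359. *Tlr7* stood at 92.0, 82.1, 93.7, and 104 CPM in pre-RPMs labelled IL1RL1-/- against between 68.0 and 85.7 in WT, and the groups overlapped for all 3 genes. In RPMs, 0 of 9 were called (0.233% of all genes) and 1 had an unadjusted p under 0.05 (7.27% of all genes), again *Tlr7* (0.25, SE 0.09, edgeR adjusted p = 0.572). It stood at 68.2, 72.9, 76.3, and 73.7 CPM in RPMs labelled IL1RL1-/-, all above the highest WT library at 66.8. *Tlr4* in RPMs had a log2 fold change of 0.21 (SE 0.11, edgeR adjusted p = 0.732), with WT between 69.6 and 99.1 CPM and libraries labelled IL1RL1-/- between 92.5 and 102. DESeq2 called 0 receptor genes in all 3 cell types. *Tlr3* and *Tlr5*, where too low for edgeR's filter, gave exact 2-sided permutation p values between 0.314 and 0.486.

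The change from one cell type to the next was also compared between genotypes, as an interaction. From monocytes to pre-RPMs, 0 of 9 receptor genes differed at an adjusted p under 0.05 (0% of all genes) and 0 at an unadjusted p under 0.05 (3.80% of all genes). From pre-RPMs to RPMs, 0 of 10 differed (0.107% of all genes), and 0 at an unadjusted p under 0.05 (7.52% of all genes). The smallest unadjusted p there was that of *Tlr1* (edgeR, unadjusted p = 0.0665), with a difference of −0.49 on the log2 scale, and for *Tlr4* the difference was 0.20. DESeq2 called 0 in both.

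Of 72 further genes of the pathway in 9 lists, 24 of 61 tested in WT were called from pre-RPMs to RPMs (24.7% of all genes) and 26 of 62 in libraries labelled IL1RL1-/- (26.0% of all genes), in directions that differed between lists. Genes that serve TLR4 at the surface were among those called higher. *Cd14*, which hands lipopolysaccharide to TLR4, stood at 3.05 ± 1.78 CPM in WT monocytes, 4.95 ± 0.494 in WT pre-RPMs, and 53.3 ± 7.40 in WT RPMs (mean ± SD, n = 4). It rose by 3.38 on the log2 scale from pre-RPMs to RPMs (SE 0.16, edgeR adjusted p = 5.65e-10), and *Ly96*, which encodes the TLR4 partner MD-2, rose by 1.61 (SE 0.33, edgeR adjusted p = 0.000879). *Cd180* and its partner *Ly86*, an RP105 complex that restrains TLR4 in macrophages, had values of −0.92 and −0.76 in WT, under the fold limit (*Cd180* −1.03 and called without the WT RPMs of mouse 2), and *Cd180* was called lower in libraries labelled IL1RL1-/- (−1.14, SE 0.11, edgeR adjusted p = 4.21e-07). In all, 2 of 5 genes tested of this list were called in WT, both higher (median 0.11).

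Genes that carry or cut the endosomal receptors were mixed. *Unc93b1*, the chaperone that takes nucleic-acid receptors to endosomes, stood at 132 CPM in WT monocytes, 228 in pre-RPMs, and 341 in RPMs, with a log2 fold change of 0.54 from pre-RPMs to RPMs (SE 0.12, edgeR adjusted p = 0.00224) and 1.35 from monocytes to RPMs (SE 0.24, edgeR adjusted p = 0.000763). The latter was 0.97 with the monocytes of mice 3 and 4 only. *Cnpy3*, a folding partner of the receptors, had a value of 0.09 from pre-RPMs to RPMs. Of 8 trafficking genes, *Pld3*, a lysosomal exonuclease that degrades the DNA that TLR9 senses, was called higher (4.81, SE 0.23, edgeR adjusted p = 8.33e-10), and *Rab7b* (−1.67) and *Slc15a4*, an endolysosomal transporter, were called lower. Of 4 proteases that process endosomal receptors, *Ctsb*, *Ctsl*, and *Lgmn* were called higher (median 2.10), *Lgmn*, asparaginyl endopeptidase, by 2.68 (SE 0.15, edgeR adjusted p = 3.34e-09). These proteases and *Pld3* are general lysosomal enzymes.

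Downstream of the receptors, all calls from pre-RPMs to RPMs were lower ones. *Myd88*, the main adaptor, stood at 35.3 ± 10.1 CPM in WT monocytes, 54.0 ± 7.39 in WT pre-RPMs, and 22.7 ± 2.87 in WT RPMs (mean ± SD, n = 4). From pre-RPMs to RPMs it fell by 1.29 on the log2 scale (SE 0.13, edgeR adjusted p = 1.28e-06), and *Ticam2*, the TRAM adaptor that links TLR4 to TRIF, fell by 1.46 (SE 0.18, edgeR adjusted p = 8.02e-06). *Tirap* (−0.19) and *Ticam1* (−0.11), the other adaptors of TLR4 and TLR3, were not called. Of genes tested, lower calls numbered 2 of 5 TIR adaptors (median −0.19), 3 of 15 kinases and ubiquitin ligases (median −0.53), and 4 of 8 transcription factors (median −0.95). They numbered 2 of 9 inhibitors (median −0.56) and 3 of 5 primary response genes (median −1.25). Of all genes, 10.7% were called lower, and the median over all genes was 0.00. The list of primary response genes holds 13, and those not tested had too few counts for edgeR's filter. Among the lower calls were *Ikbkb*, the IκB kinase (−1.74), and *Rel*, an NF-κB subunit (−1.56). *Irak4* (−0.57) and *Traf6* (−0.57), which pass the signal on from MyD88, were under the fold limit. Of the inhibitors, *Irak3* was called lower (−1.21, SE 0.17, edgeR adjusted p = 2.79e-05), whereas *Tollip* (0.00) and *Sigirr* (−0.76) were not called.

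**Figure D5:**
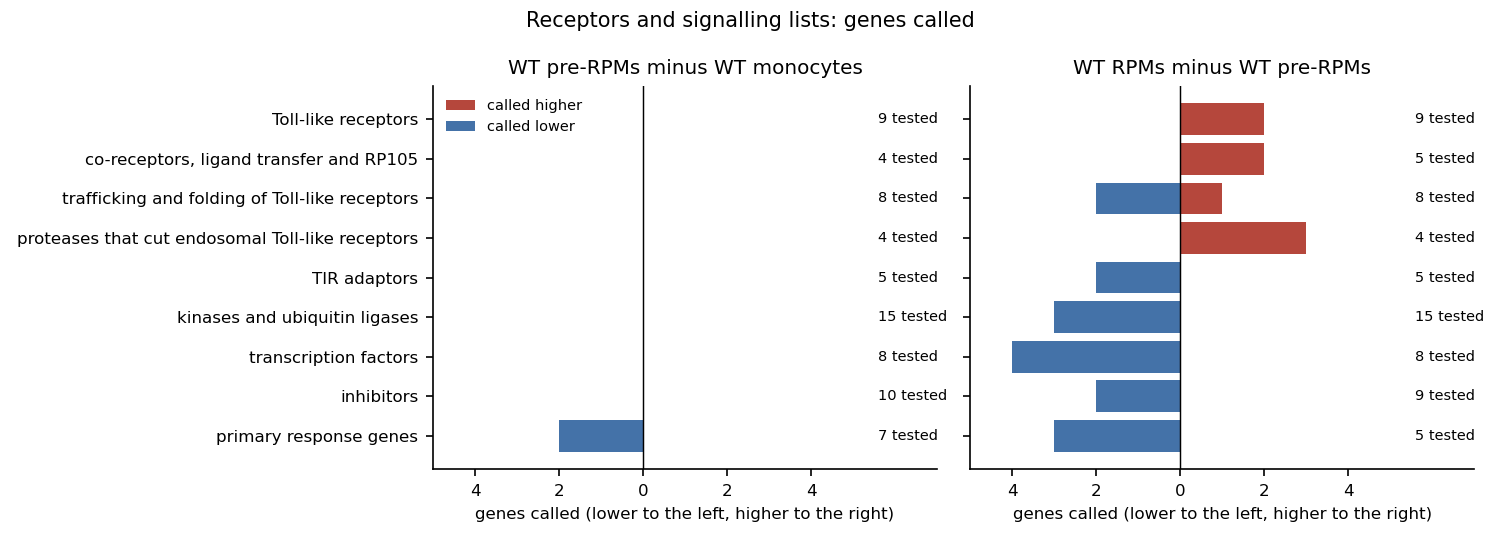
Number of genes called lower (to the left) and higher (to the right) in the 10 receptor genes and in each list but that of *Tlr11* and *Tlr12*, from monocytes to pre-RPMs and from pre-RPMs to RPMs in WT, with the number tested at the right. In the second comparison, higher calls are in the receptors (2), their co-receptors (2), the trafficking genes (1), and the proteases (3), and the lists from the TIR adaptors downwards hold lower calls only.

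From monocytes to RPMs in WT, 19 of 64 genes of the lists were called (23.9% of all genes). Higher calls included *Cd14* (4.12, SE 0.30, edgeR adjusted p = 1.35e-06), *Ly96* (2.02, SE 0.42, edgeR adjusted p = 0.00245), *Pld3* (3.88, SE 0.22, edgeR adjusted p = 1.86e-07), and *Lgmn* (3.97, SE 0.33, edgeR adjusted p = 3.81e-06). Lower calls included *Rab7b* (−2.24), *Ikbkb* (−1.11), *Rel* (−1.04), *Sigirr* (−2.14), and *Ccl3* (−5.01). With the monocytes of mice 3 and 4 only, *Ly96* (1.54, edgeR adjusted p = 0.02) and *Sigirr* (−1.70, edgeR adjusted p = 0.0163) were no longer called, and neither was *Ly96* without the monocytes of mouse 4 (1.86, edgeR adjusted p = 0.0107). *Ikbkb* (−0.90) was not called without the monocytes of mouse 3, and *Rel* was not called without the monocytes of mouse 3 or 4 or the RPMs of mouse 3 or 4 (between −0.92 and −0.99). *Ccl3* encodes a chemokine that NK cells also make, and the part of NK cell RNA in its level was not tested. The TIR adaptors held 0 calls of 5 tested in this comparison, and DESeq2 called 1, *Sarm1*. At an unadjusted p under 0.05 there were 2, *Myd88* and *Pik3ap1*, beside 6135 of the 11607 genes tested in all. With the monocytes of mice 3 and 4 only, *Ticam2* was called lower (−1.05, edgeR adjusted p = 0.000819). From monocytes to pre-RPMs, 2 of 62 genes of the lists were called in WT (3.57% of all genes), *Ccl3* (−2.13) and *Ccl4* (−2.74), both lower. At an unadjusted p under 0.05 there were 28 (31.9% of all genes). DESeq2 called 7, and its share of all genes is not given. In libraries labelled IL1RL1-/-, 7 of 64 were called (4.85% of all genes). With the mouse number as a block, *Ccl3* in WT was not called (−2.07, edgeR adjusted p = 0.0116), and *Ly86* (1.13, edgeR adjusted p = 0.0088) and *Lgmn* (1.36, edgeR adjusted p = 0.00539) were called higher. *Ccl3* was not called either with the monocytes of mice 3 and 4 only (−1.56, edgeR adjusted p = 0.0206), and it lost its call in 5 of 8 fits with 1 library removed, those without the monocytes of mouse 1 or 2 or the pre-RPMs of mouse 1, 2, or 4. Between genotypes, 0 list genes were called of 63 tested in monocytes (0.0614% of all genes) and of 61 in pre-RPMs (0.552%). In RPMs, 0 of 58 were called (0.233% of all genes). At an unadjusted p under 0.05 there were 1 in monocytes (3.59% of all genes), 8 in pre-RPMs (8.80%), and 3 in RPMs (7.27%). DESeq2 called 0, 1, and 1 in the same order.

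The remaining mouse receptor genes, *Tlr11* and *Tlr12*, whose products sense profilin and form a list of their own, went in opposite directions from pre-RPMs to RPMs. *Tlr11* stood at 9.53, 13.6, 13.2, and 14.5 CPM in WT pre-RPMs and at 1.06, 3.67, 0.534, and 0.693 in WT RPMs, with no overlap and a log2 fold change of −3.05 (edgeR adjusted p = 1.37e-05). *Tlr12* had 1, 0, 1, and 1 counts in WT pre-RPMs and between 4.85 and 6.36 CPM in WT RPMs, at least 7.56-fold higher when set against 3 counts per library. From WT monocytes to WT RPMs, *Tlr11* was called lower (−2.45, edgeR adjusted p = 0.00103) and *Tlr12* was not called (1.74, edgeR adjusted p = 0.0196). In libraries labelled IL1RL1-/-, *Tlr12* was called higher there (1.30, edgeR adjusted p = 0.00613). That call was lost in most fits that left out 1 library.

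Over the 24 libraries, each receptor was set beside 11658 other expressed genes by the correlation of log2 CPM, as a description that mostly follows the 3 cell types. *Tlr4* was most like *Tcf7l2* (r = 0.990) and *Sash1* (r = 0.988), *Tlr13* like *App* (r = 0.985) and *Aldh2* (r = 0.969), and *Tlr8* like *Ptprj* (r = 0.978) and *Lamp1* (r = 0.972). *Tlr5* was most like *Klf10* (r = 0.973) and *Gm9733* (r = 0.968), *Tlr7* like *Fam49a* (r = 0.967) and *Mpeg1* (r = 0.965), *Tlr9* like *Tgfb1* (r = 0.954) and *Themis2* (r = 0.939), and *Tlr2* like *Ctsa* (r = 0.944) and *Soat1* (r = 0.941). The remaining receptors had lower values, *Tlr3* with *Kif1b* (r = 0.914) and *Pik3ip1* (r = 0.911), *Tlr1* with *Map3k20* (r = 0.869) and *Abr* (r = 0.868), and *Tlr6* with *Plekhm3* (r = 0.860) and *Map3k8* (r = 0.851). Among the receptors themselves, *Tlr7* and *Tlr13* (r = 0.94) and *Tlr8* and *Tlr13* (r = 0.94) ran together, and *Tlr4* and *Tlr5* ran opposite (r = −0.89). These libraries share mice, sort, and depth, and no test was made of these values.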

How the data were processed

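RNA-seq libraries of monocytes, pre-RPMs, and RPMs from 4 WT mice and 4 mice labelled IL1RL1-/- were compared. The authors trimmed reads with cutadapt, aligned read pairs with STAR 2.5.1, and counted them on exons joined by gene name with featureCounts 1.6.2 and Ensembl 95, strand-specifically. The deposited values are counts per gene, neither normalized nor filtered. The genome build given with the labels is a human one, and GRCm38 was taken from the study's methods. The members and gene lists were chosen with earlier results of these data known.

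The tests were those of edgeR 4.0.16 under R 4.3.3, with limma 3.58.1: TMM factors, the filter filterByExpr, a quasi-likelihood F test, and p-values adjusted by Benjamini and Hochberg's method over every gene tested. Each was run on the 8 libraries of each pair of groups or the 16 of an interaction, with no block. The SE was derived from the F statistic. Genes outside the filter were compared with exact permutation tests on log2 CPM (prior count 2). Limits that a count of 3 sets (between 0.457 and 0.842 CPM) cover counting error only. No pair of replicates was alike within sampling noise (smallest chi-square per degree of freedom 4.25), and the labels give each library of a group its own mouse. Libraries of one genotype and number come from the same mouse. Correlations of their deviations from group means lay between −0.039 and 0.116 (WT, monocytes and pre-RPMs) and between 0.126 and 0.306 (labelled IL1RL1-/-, monocytes and pre-RPMs). Libraries that share a number across genotypes come from different mice. Their correlations lay between 0.118 and 0.452 in monocytes, between 0.149 and 0.182 in RPMs, and between 0.045 and 0.155 in pre-RPMs. The main fits between genotypes did not pair these numbers, and the block by number was an alternative only. As alternatives, DESeq2 1.42.0 and RLE factors were used, the filter was dropped (genes of 1 count or more) or raised (10 counts or more in each library), and 1 fit held all 24 libraries. Others were a block by mouse number, total counts without TMM factors for levels, each library left out in turn, and, added after the data were seen, no fold limit and monocytes of mice 3 and 4 only.

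All receptor genes were named in every comparison, with a fixed set of pathway genes, the largest called rise and fall of each list from WT monocytes to WT RPMs, and the 2 genes of most similar pattern (mean log2 CPM of at least 1). *Slc15a4*, *Ctsb*, *Ctsl*, *Ccl4*, *Pik3ap1*, and *Sarm1* were named after their values were seen. Promoters were taken from RefSeq. Counts were simulated for WT monocytes against WT RPMs (11607 genes) with 200 genes changed, and scored at an adjusted p under 0.05 with no fold limit. There edgeR recovered 108 of 200 genes changed 2-fold and 186 of 200 changed 4-fold, with 6.9% and 5.58% false calls. The data were called at an adjusted p under 0.01 with a fold limit, and 23.9% of all genes were called. The simulated shares therefore do not apply to the calls between cell types. Python 3.11.15, pandas 2.3.3, NumPy 2.4.6, and matplotlib 3.10.9 made tables and figures.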

Additional observations from a re-analysis of the deposited data

Results flagged for a closer look

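In 4 of 60 groups of 4 libraries, 1 library stood apart from the others, where chance gives about 1 group in 20. *Tlr2* was at 12.4 CPM in WT RPMs of mouse 2, against between 16.6 and 17.2 in the other 3 libraries. *Tlr5* was at 0.327 CPM in RPMs labelled IL1RL1-/- of mouse 2, a library with 2 counts, against 0 in the others. *Tlr8* was at 32.9 CPM in pre-RPMs labelled IL1RL1-/- of mouse 2, against between 40.4 and 41.9. *Tlr13* was at 87.7 CPM in RPMs labelled IL1RL1-/- of mouse 1, against between 74.7 and 76.5. Leaving out the library in question changed no edgeR call of the gene named with it.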

How the results depend on the processing

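Of the receptor genes' log2 fold changes under the other settings, 630 stayed on the same side of the thresholds, 4 became called and 3 lost their call, and over the fits that left out 1 library these numbers were 918, 10, and 16. No called value changed sign. In WT, testing every gene with at least 1 count gave 1 call from monocytes to pre-RPMs, *Tlr8* (1.00, edgeR adjusted p = 6.31e-07), and a filter of 10 counts in each library left 1 from pre-RPMs to RPMs, since *Tlr3* was no longer tested. In libraries labelled IL1RL1-/-, the latter filter likewise gave 1 call from pre-RPMs to RPMs, and leaving out the fold limit gave 4, with *Tlr7* and *Tlr9* added. From monocytes to pre-RPMs labelled IL1RL1-/-, the mouse number as a replicate block gave 3 calls and monocytes of mice 3 and 4 only gave 0; the block changed no other call of a receptor gene. Between genotypes the block, which there joins different mice that share a number, gave 0 calls in each cell type. Leaving out 1 library at a time gave between 0 and 4 calls from monocytes to pre-RPMs, between 2 and 3 from pre-RPMs to RPMs, and between 1 and 4 from monocytes to RPMs in WT, and between 0 and 3, 2 and 2, and 2 and 3 in libraries labelled IL1RL1-/-. It gave 0 calls between genotypes and in both interactions. The share of all genes called is given for the main fits only. The third call from pre-RPMs to RPMs in WT was *Tlr5*, which then passed the filter. With RLE size factors 0 of 60 group levels moved by more than 1 SD, and with total counts without TMM factors 2 of 60 did. Depth limits *Tlr3* and *Tlr5*, which have at most 37 and 19 counts in any library.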
